A study of Mus musculus with 5 samples.

Results

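Eomes, Tbx21, Prdm1 and Bhlhe40 encode transcriptional regulators of effector T cells. They were taken as named rows of the count tables, 4 of the 11924 genes listed in each of 5 single-cell libraries, and all 4 were present in every library. Each library was 1 group, so there is no replicate check on any difference and no test between groups was made. The cells had been sorted as CD4+CD45.1+ SMARTA cells, that is, CD4 T cells with a transgenic receptor for antigen, and their RNA was counted as unique molecular identifiers (UMIs) from transcript 3′ ends.

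All groups carry the same genotype label, C57BL/6, and their animals' age and sex were not used. The naive library came from spleen and was labelled without treatment. The other 4 held cells of the inguinal lymph node on the side of the tumor, taken 8 days after tumor cells had been placed in the mammary fat pad. The untreated library received none of the treatments, per its labels, although the series text speaks of an isotype antibody. The antibody library came from mice given anti-CTLA4 on days 0, 2 and 5, which blocks the inhibitory receptor CTLA4. The library labelled as depleted of regulatory T cells (Tregs) came from mice given diphtheria toxin on days 0 and 2, and the last library, called both, from mice given both treatments on those days. Which toxin-sensitive strain was used and how many mice were pooled is not given in the sources used here, and 1 protocol names MC38 where another names PyMG as the tumor. Since the naive cells came from another organ, organ and tumor cannot be told apart in that comparison.

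Eomes and Tbx21 encode Eomesodermin and T-bet, related T-box factors that switch on genes of T helper 1 and cytotoxic cells, among them Ifng, which encodes interferon gamma. Prdm1 encodes Blimp-1, a zinc finger repressor that favours terminal effector cells, opposes Bcl6 and the follicular helper program, and is a mark of effector Tregs. Bhlhe40 encodes a basic helix-loop-helix repressor induced by T cell receptor signals that sustains cytokine production by T helper cells. Gzmk and Gzmb, followed with them here, encode the granule proteases granzyme K and granzyme B.

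The libraries held 1099 to 7955 cells and 3825958 to 27967273 UMIs, with medians of 1683 (naive), 3133 (untreated), 4797 (antibody), 5208.5 (toxin alone) and 2468 (both) UMIs per cell. Levels are given as UMIs scaled to 1000000 UMIs of the listed genes (CPM), and all intervals are exact 95% intervals that cover counting error only. Intervals of levels and ratios take each UMI as independent, although UMIs of a gene can cluster in few cells. Intervals that do not overlap are therefore no test between groups. Of the 14 T cell markers looked up, 6 are among the genes used here, and all 6 had UMIs in every library, at 3380 to 4753 CPM together. Foxp3, the lineage factor of Tregs, had a UMI in 0.905%, 1.46% and 1.18% of naive, untreated and antibody cells, against 58.7% with toxin alone and 38.0% with both treatments. The libraries labelled as depleted of Tregs thus held a larger share of cells with a Foxp3 UMI than the others. This is a share of sorted cells, so it does not measure how far Tregs were depleted in the mice. These libraries are named here by the toxin given (the toxin-only library and the library with both treatments, together the toxin libraries). In both toxin libraries the median depth of Foxp3-positive cells, 6611.5 and 4599 UMIs, was above that of Foxp3-negative cells, 3835.5 and 1952.5, so some cells without a Foxp3 UMI may simply have been read too shallowly. Of the barcodes, 48 occurred in more than 1 library, with 0 to 10 shared by any pair.

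Eomes was highest with both treatments. Its gene lies on chromosome 9 (118478212 to 118486132, plus strand, GRCm38, as are all gene coordinates here). Over all cells its level was 3.41 CPM in naive (47 UMIs), 16.2 in untreated (62), 7.37 in antibody (206), 23.8 with toxin alone (385) and 92.3 with both treatments (1557 UMIs, 87.8 to 97.0 CPM). No neighbouring levels in this order had overlapping intervals. In Foxp3-negative cells the spread was wider: 3.45, 16.4, 7.31, 65.3 (58.3 to 73.0) and 232 CPM (220 to 244) in the same order. The 2 libraries after toxin were thus the highest in both sets of cells, and the antibody library was below the untreated one.

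The share of cells with an Eomes UMI gave the same order in Foxp3-negative cells. Cells were thinned at random to 1000 UMIs each so that depth was equal. Eomes was then seen in 0.258% of naive, 1.23% of untreated, 0.554% of antibody and 4.096% of toxin-only cells (2.89 to 5.63%), and with both treatments in 16.9% (15.4 to 18.5%). Without thinning the shares were 0.381%, 2.59%, 1.60%, 7.32% and 25.8%. Cells with at least 5 of 15 B cell markers, which should lack Eomes, gave 0 of 53 with antibody, 0 of 50 with toxin alone and 1 of 39 (2.56%) with both treatments after thinning, at median depths of 6529, 11575.5 and 9550 UMIs. Of the thinned shares, those of naive, untreated, antibody and toxin-only cells lay within what 0 of 50 such cells allows, up to 7.11%. The share with both treatments was above the upper limit of its own background, 13.5%. With only 39 to 53 such cells the background is known poorly. Doublets were not called, and whether such cells also held T cell RNA was not tested.

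How Eomes UMIs were spread over cells differed between the toxin libraries. In Foxp3-negative cells of the toxin-only library 66 cells held 315 UMIs, 4.77 per positive cell, with up to 30 in 1 cell, and the 10 cells with the most UMIs held 57.8% of them. With both treatments 695 cells held 1482 UMIs, 2.13 per positive cell, with at most 11, and the top 10 cells held 6.41%. In the untreated library 28 cells held 62 UMIs, and the top 10 cells held 62.9%. The Eomes level of the untreated and toxin-only libraries therefore rested mostly on 10 cells each, and that with both treatments did not. A share held by 10 cells depends on how many cells are positive, here 28 (untreated), 66 (toxin alone) and 695 (both). UMIs per positive cell were not thinned. Median depth of Foxp3-negative cells was 3835.5 UMIs with toxin alone and 1952.5 with both treatments.

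Tbx21 was highest after toxin alone. Its gene lies on chromosome 11 (97098071 to 97115331, minus strand). Over all cells it stood at 2.69 CPM in naive (37 UMIs), 11.8 in untreated (45), 12.2 in antibody (340), 31.2 with toxin alone (504, 28.5 to 34.1 CPM) and 22.1 with both treatments (373, 19.9 to 24.5 CPM). The intervals of the untreated and antibody levels overlapped, and those of each other neighbouring pair did not. In Foxp3-negative cells the levels were 2.64, 11.9, 12.3, 24.3 (20.1 to 29.1) and 12.2 CPM (9.64 to 15.2). There the intervals of the untreated, antibody and combination libraries overlapped, with naive cells below and toxin-only cells above them. After thinning Tbx21 was seen in 0.258%, 1.04%, 0.975%, 1.71% and 1.19% of Foxp3-negative cells (0.393%, 3.05%, 5.23%, 8.98% and 2.49% without thinning). The B cell marker cells gave 1.89% with antibody, 2.00% with toxin alone and 0 of 39 with both treatments, so these shares were at or near background and no order of the libraries is read from them. What is said further on of Tbx21-positive cells rests on calls that stand beside this background.

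Taken over all cells, Prdm1 was low in lymph node libraries without toxin and high in those after it. Its gene lies on chromosome 10 (44437177 to 44528501, minus strand). Of its 1080 31-base words at the 3′ end 11 also occur among 7 other genes, so that its counts could in small part be shared. Over all cells it stood at 10.6 CPM in naive (146 UMIs), 1.57 in untreated (6), 2.75 in antibody (77), 68.6 with toxin alone (1108, 64.6 to 72.8 CPM) and 73.05 with both treatments (1232, 69.0 to 77.2 CPM). The untreated and antibody levels overlapped, as did the levels of both toxin libraries, and the naive level lay apart from either pair. In Foxp3-negative cells alone the toxin libraries were far lower, at 18.5 (14.8 to 22.7) and 20.96 CPM (17.6 to 24.8), against 10.06 in naive, 1.33 in untreated (5 UMIs) and 2.29 in antibody cells. After thinning Prdm1 was seen in 1.06%, 0 of 1077, 0.153%, 5.90% and 5.10% of all cells (1.70%, 0.546%, 1.42%, 28.0% and 17.6% without thinning), where 0 of 1077 allows up to 0.342%. The B cell marker cells of the toxin libraries gave 14.0% and 7.69%, so Prdm1 shares over all cells there did not stand above theirs. Whether this Prdm1 was background or RNA of their own was not tested, and libraries are compared by CPM. What is said further on of Prdm1-positive cells rests on calls that stand beside these shares.

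Over all cells and in Foxp3-negative cells, Bhlhe40 separated the naive library from all others. Its gene lies on chromosome 6 (108660629 to 108666925, plus strand). Over all cells it stood at 3.70 CPM in naive (51 UMIs), 60.9 in untreated (233), 64.1 in antibody (1794), 37.2 with toxin alone (601, 34.3 to 40.3 CPM) and 46.4 with both treatments (782, 43.2 to 49.7 CPM). Untreated and antibody levels overlapped. In Foxp3-negative cells the order was another one: 3.38, 61.3, 64.9, 90.02 (81.7 to 98.9) and 87.1 CPM (80.0 to 94.7), with the toxin libraries highest and overlapping each other. The 72 Foxp3-positive naive cells held 5 Bhlhe40 UMIs, at 34.8 CPM (11.3 to 81.3), so the low naive level is not read for them. After thinning the shares of Foxp3-negative cells were 0.245%, 4.90%, 5.12%, 6.26% and 7.22% (0.469%, 13.3%, 19.7%, 20.8% and 12.4% without thinning), and in B cell marker cells 5.66% with antibody, 0 of 50 with toxin alone and 2.56% with both treatments. The antibody share was below that of its B cell marker cells, and the shares after toxin lay within what so few such cells allow. No order of the libraries is read from these shares. What is said further on of Bhlhe40-positive cells rests on calls that stand beside this background. Fewer positive cells and less RNA per cell cannot be told apart from a CPM level alone; in Foxp3-negative cells the mean was 1.60, 2.01, 2.31 and 1.67 Bhlhe40 UMIs per positive cell in the 4 lymph node libraries.

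**Figure D1:**
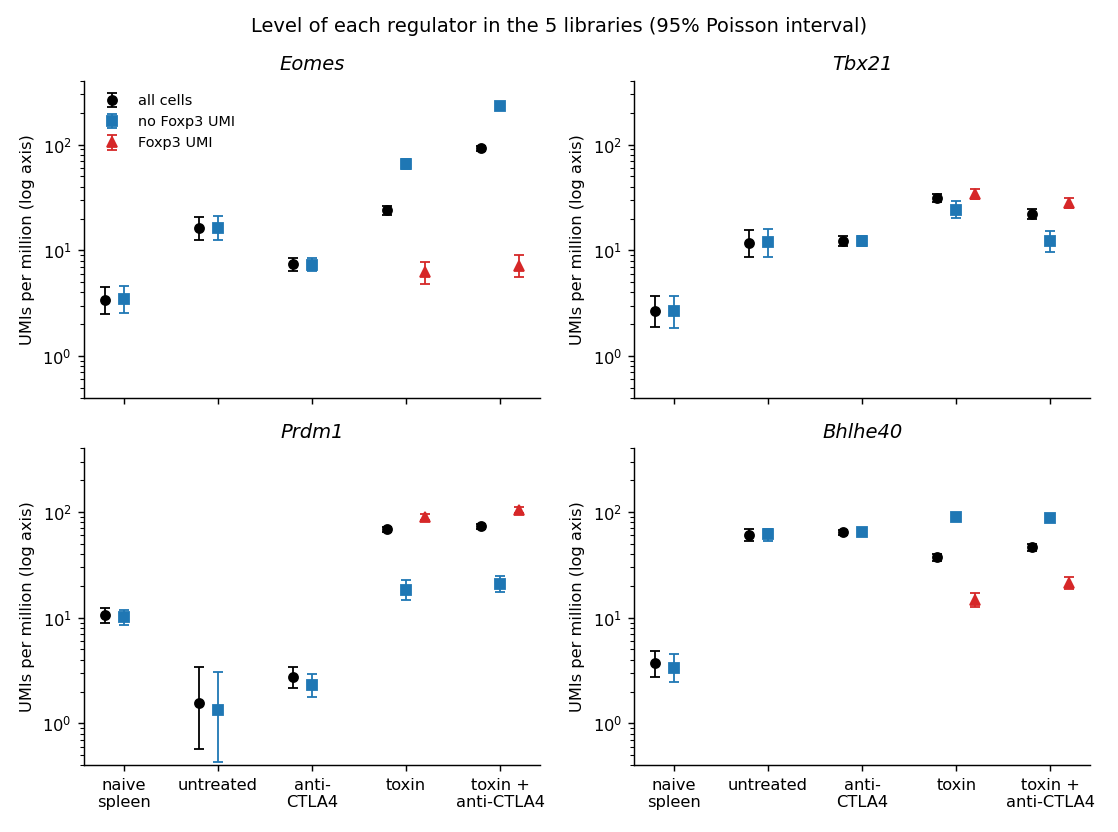
Level of Eomes, Tbx21, Prdm1 and Bhlhe40 in CPM (y axes, log scale) in the 5 libraries (x axis), for all cells, Foxp3-negative cells and, in the toxin libraries, Foxp3-positive cells; points are library values and bars exact 95% Poisson intervals, which cover counting error only. Eomes is highest with both treatments, at 232 CPM in Foxp3-negative cells, and Bhlhe40 is lowest in the naive library over all cells and in Foxp3-negative cells.

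What SMARTA cells of the tumor-side node held beyond naive ones was addressed by untreated against naive cells. Genes counted here had at least 30 UMIs over both libraries, and a gene was counted as higher or lower from 1.5-fold. In Foxp3-negative cells Eomes was 4.77-fold (log2 2.25, 1.68 to 2.83), Tbx21 4.52-fold (log2 2.18, 1.51 to 2.85) and Bhlhe40 18.1-fold higher (log2 4.18, 3.72 to 4.67), and Prdm1 was 7.58-fold lower (log2 −2.92, −4.57 to −1.67). Thus 3 of 4 members were higher and 1 lower, where 16.8% of the 10666 genes were higher and 21.3% lower. Over all cells the counts were the same, with 16.7% of genes higher and 21.4% lower. In receptor-positive Foxp3-negative cells, which held a UMI of Trav14d-3-dv8 or of Trbv13-1, variable genes used by the SMARTA receptor, they were again 3 and 1 (16.4% and 21.8% of genes), with Bhlhe40 at 66.9 against 1.42 CPM. There Prdm1 had 1 UMI against 41, 21.6-fold lower with an interval of 3.67 to 874. In the untreated library the members' levels rested on few UMIs, except for Bhlhe40.

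The surrounding genes of untreated against naive Foxp3-negative cells moved as follows, beside a median log2 ratio of −0.07 over all genes. Partner factors, which act with the members, had 8 of 17 higher and 3 lower (median 0.49): the receptor-induced factor Irf4 had a log2 ratio of 3.65 (3.22 to 4.09) and Hopx 3.19 (2.99 to 3.40). Cytokine receptors and ligands upstream of the members had 3 of 14 higher and 6 lower (median −0.30), with Il2rb at 3.59 (3.38 to 3.80) and Il7r at −2.70 (−2.86 to −2.55). Factors of naive, memory or follicular cells, which oppose the members, had 2 of 13 higher and 8 lower (median −0.77), with Klf2 at −1.96 (−2.02 to −1.90) and the follicular factor Tox2 at 4.55 (4.08 to 5.05). Of 20 effector outputs 4 were higher and 11 lower (median −1.03). Gzma, a protease of cytotoxic granules, had 0 UMIs against 745 and was 68.7-fold lower with 3 UMIs set for the 0. The chemokine gene Ccl5 was at −4.17 (−4.65 to −3.74). Relatives of the members by family were higher in 0 of 8 and lower in 2. Among receptor-positive Foxp3-negative cells, effector outputs had 4 of 15 higher and 6 lower (median 0.02, all genes −0.08). Summed NK cell markers stood at 68.1 CPM in the naive and 10.2 CPM in the untreated library, over all cells. Their part in the ratios of effector outputs was not tested.

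Antibody against untreated cells asked what CTLA4 blockade alone changed. Eomes was 2.25-fold lower in Foxp3-negative cells (log2 −1.17, −1.59 to −0.73). Tbx21 had a log2 ratio of 0.05 and Bhlhe40 one of 0.08 (−0.12 to 0.29), below 1.5-fold. Prdm1 was counted as higher, at 0.79, but its interval, −0.51 to 2.46, crossed 0 and its log2 ratio was 0.00 without cycling cells. So 1 of 4 members was higher and 1 lower, beside 11.6% and 11.2% of 11310 genes, and over all cells likewise (11.6% and 11.4%). Among receptor-positive Foxp3-negative cells Eomes was lower with a log2 ratio of −1.46 (−1.93 to −0.98), and Prdm1 had 54 UMIs against 1, 6.45-fold higher with an interval of 1.11 to 259 (11.0% of genes higher, 12.2% lower). Of 18 partner factors 5 were higher and 3 lower (median −0.00, all genes −0.07), with Maf at 1.31 (1.14 to 1.495) and Ikzf3 at −1.27 (−1.46 to −1.08). Of 15 upstream receptors 2 were higher and 5 lower (median −0.23), with Il2ra at −1.78 (−2.29 to −1.24) and Il18rap at 0.96 (0.18 to 1.85). Opposing factors were higher in 0 and lower in 6 (median −0.49), with Bach2 at −1.71 (−1.88 to −1.54) and Foxp1 at −1.19 (−1.26 to −1.13). Of 17 effector outputs 8 were higher and 4 lower (median 0.07), and Il21, a follicular helper cytokine gene, had 542 UMIs against 2 (37.2-fold, 10.2 to 308), while Prf1, which encodes perforin, was at −1.95 (−2.85 to −1.01). Cycling cells, those with UMIs of at least 2 of 15 cycling markers, made up 11.4% of untreated and 45.5% of antibody cells, and their part in these ratios was not tested beyond leaving them out.

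Toxin-only against untreated cells asked what toxin alone changed. In Foxp3-negative cells Prdm1 was 13.9-fold higher (log2 3.80, 2.52 to 5.46), Eomes 3.97-fold (1.99, 1.59 to 2.41) and Tbx21 2.03-fold higher (1.02, 0.52 to 1.55). Bhlhe40, at 1.47-fold (0.56, 0.32 to 0.79), lay just under the limit and passed it with trimmed mean (TMM) scaling, at log2 0.72, without cells with markers of another cell type, at 0.62 or 0.76, and without the 5% deepest cells, at 0.61. Thus 3 of 4 members were higher and 0 lower, beside 11.4% and 19.7% of 10185 genes. TMM scaling added 0.16 to all log2 ratios of this comparison, and 0.29 over all cells. Prdm1 stayed higher without cycling cells, at 2.03, and without cells holding a UMI of Il2ra, at 2.68.

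Over all cells of the same libraries the Foxp3-positive ones, 58.7% of the toxin-only library, took part, and the picture changed. Prdm1 had a log2 ratio of 5.45 and Tbx21 one of 1.41, and Bhlhe40 was lower at −0.71. Eomes, at 0.56, lay just under the limit, and passed it under 5 of 6 alternatives (0.59 to 1.46), TMM scaling (0.85) among them, and was at 0.53 under the sixth. That is 2 of 4 higher and 1 lower, beside 16.2% and 33.5% of all genes. Bhlhe40 lost its count under TMM scaling (−0.42) and was at 0.41 where cells with 2 markers of another cell type were left out, which removed 66.5% of the toxin-only library. In receptor-positive Foxp3-negative cells Eomes was at 2.19, Tbx21 at 1.20 and Bhlhe40 at 0.64 (0.35 without cycling cells, 0.23 without Il2ra-positive cells), while Prdm1, with 23 UMIs against 1, had too few UMIs to be counted (20.9-fold, 3.40 to 862). There 9.75% of genes were higher and 18.2% lower.

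Beside these members, partner factors of Foxp3-negative cells had 8 of 18 higher and 0 lower with toxin alone (median 0.39, all genes −0.17), with Nfil3 at 3.28 (2.18 to 4.64) and Runx2 at 2.42 (1.95 to 2.93). Upstream receptors were higher in 8 and lower in 5 of 15 (median 0.62). The interleukin 12 receptor gene Il12rb2 had 73 UMIs against 0 and was 19.03-fold higher with 3 UMIs set for the 0. The interleukin 2 receptor gene Il2ra was at 3.04 (2.60 to 3.51) and the interleukin 18 receptor gene Il18rap at 2.59 (1.78 to 3.51). Of 13 opposing factors 1 were higher and 7 lower (median −0.80), with Bach2 at −1.77 (−2.05 to −1.497) and Foxp1 at −1.56 (−1.67 to −1.45). Of 21 effector outputs 18 were higher and 1 lower (median 2.92). The granzyme genes Gzmb and Gzma had 2116 and 576 UMIs against 0. They were 551.7-fold and 150.2-fold higher with 3 UMIs set for the 0, and Ly6c2 was at 5.99 (5.21 to 6.90). Summed B cell markers stood at 974 CPM in the untreated and 5314 CPM in the toxin-only library, and the part of such RNA in these ratios was not tested.

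Both treatments against antibody alone asked what toxin changed on top of blockade. In Foxp3-negative cells Eomes was 31.7-fold higher (log2 4.99, 4.77 to 5.21) and Prdm1 9.15-fold higher (3.19, 2.75 to 3.65). Tbx21 had a log2 ratio of −0.02 and Bhlhe40 one of 0.43 (0.29 to 0.56), both under the limit. So 2 of 4 members were higher and 0 lower, beside 17.9% and 13.4% of 11467 genes. Over all cells 3 were higher (Eomes 3.65, Prdm1 4.73 and Tbx21 0.86) and 0 lower, beside 13.6% and 16.1% of genes, but Tbx21 was at 0.38 without cycling cells and at 0.34 without cells with 2 markers of another cell type. In receptor-positive Foxp3-negative cells Eomes was 40.3-fold higher and Prdm1 at 1.35 (20.1% of genes higher, 16.2% lower), and Prdm1 was at 0.70 without cells holding an Il2ra UMI.

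In this comparison, of 18 partner factors 10 were higher and 1 lower (median 0.65, all genes 0.02), with Ikzf3 at 2.77 (2.65 to 2.89) and Nfil3 at 2.62 (2.17 to 3.07). Of 15 upstream receptors 6 were higher and 1 lower (median 0.27), with Il2ra at 5.15 (4.85 to 5.47) and Il10ra at 2.75 (2.56 to 2.93). Opposing factors were higher in 5 and lower in 1 of 13 (median 0.38), the lower one being Tox2 at −1.57 (−1.79 to −1.35), with Bach1 at 1.48 (1.17 to 1.78). Of 23 effector outputs 18 were higher and 4 lower (median 3.76). Gzmb had 1641 UMIs against 2, a log2 ratio of 11.78 (9.93 to 14.83). The receptor gene Klrg1 had 112 against 0 and was 160.6-fold higher with 3 UMIs set for the 0.

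Both treatments against toxin alone asked what blockade changed on top of toxin. Eomes was 3.55-fold higher in Foxp3-negative cells (log2 1.83, 1.65 to 2.01), the opposite sign to its ratio between antibody and untreated cells, and Tbx21 1.99-fold lower (−0.99, −1.42 to −0.57). Prdm1 (0.18, −0.21 to 0.59) and Bhlhe40 (−0.05, −0.23 to 0.14) had intervals that included 0. Thus 1 of 4 members was higher and 1 lower, beside 18.4% and 7.61% of 10623 genes. Eomes was in receptor-positive Foxp3-negative cells 3.21-fold higher and Tbx21 3.15-fold lower (2.02 to 5.05), where 20.4% of genes were higher and 9.63% lower. Over all cells Eomes was higher at 1.95 and 0 members were lower (12.4% and 3.12% of genes), with Tbx21 at −0.50 and at −0.82 without cycling cells. The T-box pair, Eomes and Tbx21, thus had opposite signs in each of these sets of cells.

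In the same cells partner factors had 3 of 18 higher and 1 lower (median 0.13, all genes 0.10), with Ikzf3 at 1.03 (0.89 to 1.18) and Maf at 0.89 (0.80 to 0.98). Upstream receptors were higher in 2 and lower in 3 of 15 (median −0.04): Il10ra was at 1.92 (1.64 to 2.21), while Il12rb2 and Il18r1, receptors of T helper 1 cytokines, were at −1.14 (−1.71 to −0.58) and −1.01 (−1.27 to −0.76). Opposing factors were higher in 5 and lower in 1 of 13 (median 0.35), with Bach2 at 1.34 (1.08 to 1.61) and Foxp1 at 1.24 (1.14 to 1.35). Effector outputs were higher in 8 and lower in 11 of 24 (median −0.36), and Gzmk, at 152 against 12.7 CPM, was 12.04-fold higher (9.29 to 15.9). With 3 UMIs set for a 0, the cytokine gene Csf2, with 0 UMIs against 45, was 19.9-fold lower. The chemokine gene Ccl3, with 57 against 0, was likewise 14.3-fold higher. Family relatives were higher in 3 and lower in 1 of 9. The comparisons share libraries (the untreated, antibody, toxin-only and combination library each enter more than 1), so their values are set side by side and are not independent.

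**Figure D2:**
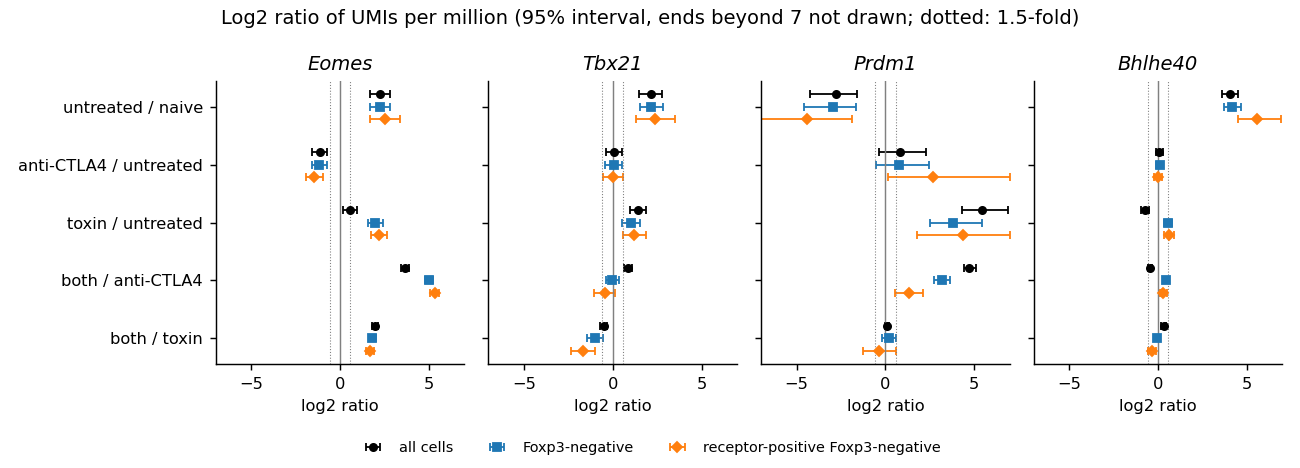
Log2 ratio of CPM of each member (x axes) in the 5 comparisons of libraries (y axis), for all, Foxp3-negative and receptor-positive Foxp3-negative cells; bars are exact 95% intervals that cover counting error only, dotted lines mark 1.5-fold, and interval ends beyond 7 are not drawn. Eomes lies left of 0 for antibody against untreated and right of 0 for both against toxin alone, and Prdm1 lies right of 0 in both comparisons that add toxin.

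Within the toxin libraries, Foxp3-positive and Foxp3-negative cells differed in all members. In the toxin-only library Eomes was 10.6-fold lower (8.14 to 13.9) and Bhlhe40 6.11-fold lower in Foxp3-positive cells, at 6.18 against 65.3 and 14.7 against 90.02 CPM. Prdm1 was 4.87-fold higher (3.92 to 6.12), at 89.9 against 18.5 CPM, and Tbx21 1.41-fold higher (1.14 to 1.75), at 34.2 against 24.3 CPM. So 1 of 4 members was counted as higher and 2 as lower, beside 10.4% and 22.9% of 10630 genes. TMM scaling added 0.15 to the log2 ratios, which took Tbx21 past the limit at 0.64.

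The library with both treatments gave the same directions. Eomes was 32.4-fold lower in Foxp3-positive cells (25.7 to 41.4), at 7.16 against 232 CPM, and Bhlhe40 4.05-fold lower (3.47 to 4.75), at 21.5 against 87.1 CPM. Prdm1 was 5.00-fold higher, at 105 against 20.96 CPM, and Tbx21 2.31-fold higher (1.79 to 3.003), at 28.2 against 12.2 CPM. Thus 2 of 4 members were higher and 2 lower, beside 14.3% and 35.1% of 10901 genes. TMM scaling added 0.25 here and changed none of the 4 directions. Foxp3 itself defined the split and is no result.

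Cycling cells made up 58.6% of the toxin-only library and 38.9% with both treatments, and leaving them out moved the folds of Prdm1 and Bhlhe40 in both libraries, and of Eomes and Tbx21 with both treatments, by over 1.5 times. Without them the log2 ratio of Prdm1 between Foxp3-positive and Foxp3-negative cells was 4.101 with toxin alone and 3.51 with both treatments (2.28 and 2.32 with all cells). That of Bhlhe40 was −1.39 and −1.13 (−2.61 and −2.02), and that of Eomes with both treatments −3.47 (−5.02). Tbx21 stood at 2.26 (1.21) with both treatments. With toxin alone Eomes moved by less than that, and Tbx21 was at 0.80 (0.49), which took it past the limit. No direction turned.

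Around the members, opposing factors were lower in Foxp3-positive cells, 8 and 0 higher of 13 with toxin alone (median −1.30, all genes −0.16) and 11 and 0 higher with both treatments (median −1.96, all genes −0.27). Tcf7, a factor of naive and memory T cells, was at −4.82 (−4.98 to −4.65) and −4.51 (−4.67 to −4.35), and Tox2 at −5.11 (−5.88 to −4.42) and −4.36 (−5.23 to −3.60). Partner factors were higher in 4 and lower in 5 of 18 with toxin alone, and higher in 6 and lower in 6 with both treatments. Among them Stat4, which carries the interleukin 12 signal, was at −1.75 (−1.89 to −1.61) and −2.12 (−2.25 to −1.999), and Zeb2 at −5.23 (−7.56 to −3.60) and −3.44 (−4.37 to −2.63). Upstream receptors were higher in 7 and 6 and lower in 3 and 3 of 15, with Il2ra, a Treg marker, at 2.96 (2.83 to 3.09) and 2.77 (2.66 to 2.87), and Il2rb at 1.31 (1.23 to 1.40) and 1.36 (1.29 to 1.44). Effector outputs were higher in 11 of 24 and 9 of 22 and lower in 10 and 11. With toxin alone Il21 had 1 UMI against 30, at −6.14 (−11.49 to −3.55), and Csf2 3 against 45, at −5.14 (−7.47 to −3.50), and with both treatments Gzmk was at −3.51 (−3.78 to −3.25) and Gzmb at 3.05 (2.97 to 3.12).

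Seen from the member-positive cells after thinning, Prdm1 lay mostly in Foxp3-positive cells. Of 127 cells with a Prdm1 UMI in the toxin-only library 87.4% were Foxp3-positive, and of 202 with both treatments 79.7%. Of Tbx21-positive cells 71.2% of 52 and 54.1% of 61 were Foxp3-positive. The shares were 29.5% of 78 and 20.6% of 214 for Bhlhe40, and 10.0% of 40 and 3.63% of 413 for Eomes. Cells without the member gave 57.4 to 60.3% and 38.4 to 44.8% over the 4 members. Prdm1 lay above and Eomes and Bhlhe40 below the share of their negative cells in both libraries, while for Tbx21 the intervals overlapped, at 56.9 to 82.9% against 56.7 to 61.0% and at 40.8 to 66.9% against 38.8 to 41.9%. Foxp3-positive cells of the other 3 libraries numbered 72, 16 and 54, and there Prdm1 had 9, 1 and 14 UMIs and Eomes 0, 0 and 5.

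**Figure D3:**
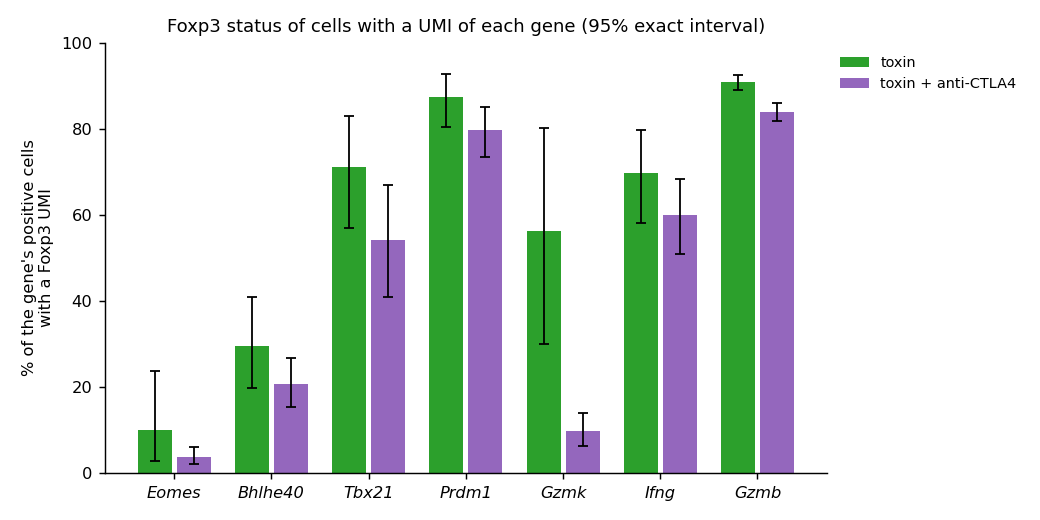
Share of Foxp3-positive cells in percent (y axis, 0 to 100) among cells with a UMI of each member and partner (x axis) in the toxin-only library and with both treatments, after thinning to 1000 UMIs; bars are exact 95% binomial intervals. Of Prdm1-positive cells 87.4% and 79.7% were Foxp3-positive, of Eomes-positive cells 10.0% and 3.63%.

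The receptor variable genes split the Foxp3-negative cells further. Such a UMI was held by 34.4% of naive, 63.3% of untreated, 73.6% of antibody, 54.9% of toxin-only and 49.2% of Foxp3-negative cells with both treatments, and by 21.4% and 18.6% of Foxp3-positive cells in the toxin libraries. As with Foxp3, shallow cells can lack such a UMI, and the split was made on unthinned counts. In the toxin libraries Foxp3-positive cells held such a UMI less often than Foxp3-negative ones. They were deeper, at medians of 6611.5 and 4599 UMIs against 3835.5 and 1952.5. The comparisons by Foxp3 above thus also differ in receptor share, whose part in them was not tested. Whether cells without such a UMI were SMARTA cells was not tested. Eomes was higher in receptor-positive than receptor-negative Foxp3-negative cells of both toxin libraries: 89.3 CPM (78.6 to 100.9) against 30.5 (23.3 to 39.3) with toxin alone, and 287 (269 to 306) against 172 (158 to 188) with both treatments. In naive, untreated and antibody cells, at 3.45 against 3.45, 19.6 against 9.39 and 7.12 against 8.04 CPM, the intervals overlapped.

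Prdm1 went the other way in the toxin libraries. It stood at 8.05 CPM (5.10 to 12.1) in receptor-positive against 33.6 (26.0 to 42.7) in receptor-negative Foxp3-negative cells with toxin alone, and at 6.33 (3.92 to 9.67) against 36.75 (30.3 to 44.2) with both treatments. Naive receptor-positive Foxp3-negative cells stood at 8.31 CPM (5.97 to 11.3), so in that class the toxin libraries were not above naive. Tbx21 overlapped with toxin alone, at 26.6 against 20.9 CPM, and its intervals overlapped narrowly with both treatments, at 8.44 (5.61 to 12.2) against 16.3 (12.1 to 21.4). Bhlhe40 was at 104 (92.5 to 117) against 69.7 (58.5 to 82.4) with toxin alone, and at 82.3 (72.8 to 92.6) against 92.4 (81.9 to 104) with both treatments, where the intervals overlapped.

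In Foxp3-positive cells the receptor split separated Eomes and Bhlhe40 as well. Eomes stood at 16.1 CPM (11.6 to 21.7) in receptor-positive against 3.12 (2.06 to 4.54) in receptor-negative Foxp3-positive cells with toxin alone, and at 26.1 (19.7 to 33.8) against 2.17 (1.29 to 3.43) with both treatments. Of the 70 Eomes UMIs of Foxp3-positive cells with toxin alone 26 lay in 1 cell, so that split can depend on its class. With both treatments no such cell held more than 8 of 75. Bhlhe40 was at 21.3 against 12.7 and 35.2 against 17.9 CPM, without overlap of the intervals. Prdm1 overlapped with toxin alone, at 91.3 against 89.5, and was lower in receptor-positive cells with both treatments, at 81.8 (70.3 to 94.7) against 111 (104 to 118). Tbx21 overlapped in both libraries.

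**Figure D4:**
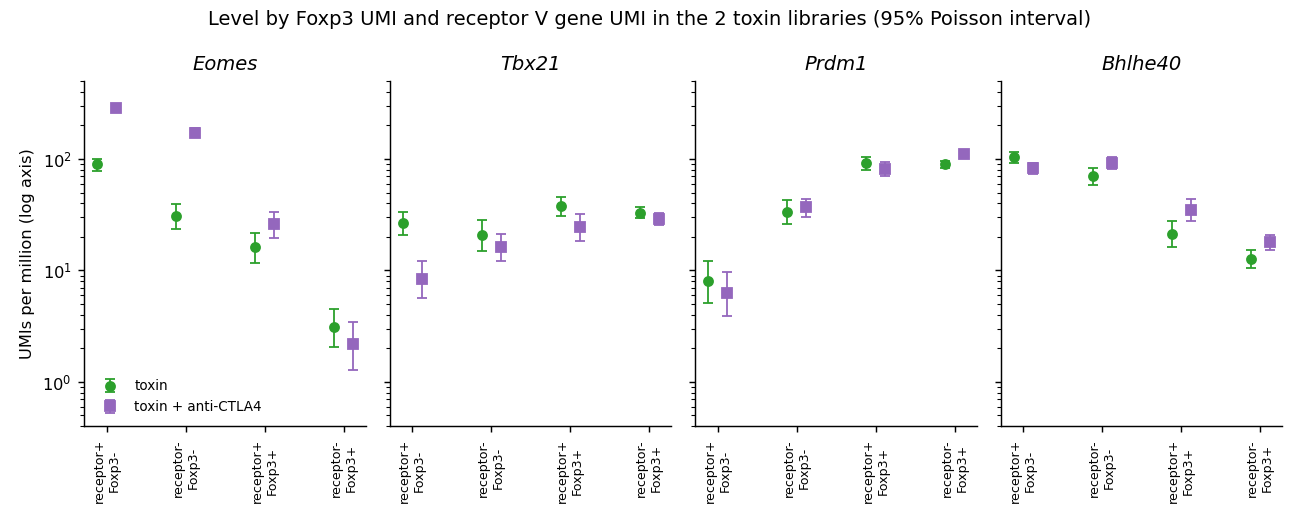
Level of each member in CPM (y axes, log scale) in cells split by a Foxp3 UMI and by a UMI of a receptor variable gene (x axis), for the toxin-only library and that with both treatments; bars are exact 95% Poisson intervals. Eomes is highest in receptor-positive Foxp3-negative cells, at 89.3 and 287 CPM, and Prdm1 stands at 81.8 CPM or more in each Foxp3-positive class and at 36.75 CPM or less in each Foxp3-negative one.

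The partners Ifng, Gzmk and Gzmb are described next, with the sequence before their start sites, because they are the genes whose UMIs were followed in member-positive cells. Promoters were taken from RefSeq (GRCm38.p6), from 250 bases before to 50 after the start; 3 of 4 members and all 3 partners had one, and Bhlhe40 had none. They were searched on both strands for GGTGTGA, a T-box motif, for CACGTG, the E-box bound by Bhlhe40, and for AGNGAAAG, the core of the PRDM1 site. GGTGTGA was found in 1 of these 6 promoters, that of Gzmk, at bases −75 to −69, and in 3.98% of 32851 promoters in all. CACGTG was in 0 of the 6 and 7.15% of all, and AGNGAAAG only in that of Tbx21, 22 bases after the start, and in 8.63% of all. A match is a description of letters and not a site of binding. The 120 bases before the start of each partner follow, 5′ to 3′ in the direction of transcription, with the T-box motif in capitals, from chr13:113180966-113181085 (minus strand), chr14:56262335-56262454 (minus strand) and chr10:118440926-118441045 (plus strand).
Gzmk: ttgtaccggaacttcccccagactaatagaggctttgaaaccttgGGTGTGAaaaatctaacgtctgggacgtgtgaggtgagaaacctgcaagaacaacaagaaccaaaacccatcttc
Gzmb: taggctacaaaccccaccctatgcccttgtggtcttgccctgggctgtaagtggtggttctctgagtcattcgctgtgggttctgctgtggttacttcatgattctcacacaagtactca
Ifng: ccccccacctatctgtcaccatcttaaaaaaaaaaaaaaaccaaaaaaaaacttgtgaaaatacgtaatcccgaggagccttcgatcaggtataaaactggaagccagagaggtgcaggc

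In Foxp3-negative cells Gzmk stood at 1.10, 5.83, 4.44, 12.7 and 152 CPM from naive to both treatments. Gzmb stood at 1.61 CPM, 0 UMIs, 2 UMIs, 439 and 257 CPM, and Ifng at 1.84, 14.1, 7.09, 70.7 and 34.3 CPM. With both treatments Gzmk was thus the partner that was higher than with toxin alone, and Gzmb and Ifng were lower. The 10 cells with the most Ifng UMIs held 68.9% of them with toxin alone and 45.2% with both treatments. Of 540 words of 31 bases at the 3′ end of Ifng 129 also occur in another gene, so its counts are uncertain.

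Co-occurrence was taken as the share of cells with a partner UMI among member-positive and member-negative cells of 1 library after thinning, where at least 20 positive cells remained. Eomes-positive cells held Gzmk more often than Eomes-negative ones in each of the 3 treated libraries. With both treatments 18.6% of 398 positive cells (14.9 to 22.8%) against 8.13% of 1956 negative cells (6.96 to 9.43%) had a Gzmk UMI. With toxin alone the shares were 13.9% of 36 (4.67 to 29.5%) against 0.237% of 843, and with antibody 28.0% of 25 (12.1 to 49.4%) against 0.267% of 4487. For receptor-positive Foxp3-negative cells they were 18.5% of 232 against 8.85% of 994 with both treatments and 13.8% of 29 against 0.216% of 463 with toxin alone. Positive and negative cells had had median depths of 2256 and 2105.5 UMIs with both treatments and 5323 and 3876 with toxin alone.

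Gzmb and Eomes rarely shared a cell in these libraries. With both treatments 2.76% of Eomes-positive (1.39 to 4.89%) against 9.25% of Eomes-negative Foxp3-negative cells held a Gzmb UMI, and with toxin alone 0 of 36 against 11.5%, where the intervals overlapped. Ifng was at 2.26% against 2.25%. Cycling cells made up 5.53% of the Eomes-positive (3.50 to 8.25%) and 13.9% of the Eomes-negative cells with both treatments. Of 10 NK cell markers 8 were at 0 in the Eomes-positive cells of that library, at 25.1 against 35.3 CPM together in the negative ones. B cell markers had 7 of 15 at 0 and stood at 518 against 1886 CPM.

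Prdm1-positive and Tbx21-positive Foxp3-negative cells were those with more Gzmb. With both treatments 31.7% of 41 Prdm1-positive cells (18.1 to 48.1%) against 7.74% of negative ones held Gzmb, and 39.3% of 28 Tbx21-positive cells (21.5 to 59.4%) against 7.78%. Of the Prdm1-positive cells 43.9% against 11.9% were cycling and 7.32% against 29.7% had a receptor variable gene UMI. The Treg marker list, of which 1 of 9 was at 0, stood at 6780 CPM in Prdm1-positive against 2418 CPM in Prdm1-negative cells, and at 4143 against 2475 CPM for Tbx21. Whether these cells are Tregs without a Foxp3 UMI was not tested. Gzmk was at 3.57% against 9.97% for Tbx21, with overlapping intervals.

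Bhlhe40-positive Foxp3-negative cells held Ifng more often in both toxin libraries. With toxin alone 20% of 55 positive cells (10.4 to 33.0%) against 1.46% of 824 had an Ifng UMI, and with both treatments 6.47% of 170 (3.27 to 11.3%) against 1.92%. With antibody, at 1.73% of 231 against 0.654%, the intervals overlapped. In receptor-positive cells the toxin-only library gave 18.9% of 37 against 1.76%, and Gzmb 24.3% against 5.71%, while with both treatments Ifng at 2.60% against 1.65% overlapped. Gzmk (7.65% against 10.1%) and Gzmb (7.65% against 8.20%) overlapped for Bhlhe40 with both treatments. NK cell markers stood at 165 against 23.4 CPM in Bhlhe40-positive and negative cells there, with 6 of 10 at 0, and their part was not tested.

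Over the libraries, 39 member and partner pairs could be compared in Foxp3-negative cells: the positive share was above the negative one without overlap in 12, below it in 1 (Eomes with Gzmb, both treatments), and overlapped in 26. In receptor-positive Foxp3-negative cells 4 of 24 were above and 0 below, and in Foxp3-positive cells of the toxin libraries 1 of 18 was above, Prdm1 with Gzmb under both treatments, at 76.4% of 161 (69.1 to 82.7%) against 61.1% of 1444 (58.5 to 63.6%). With toxin alone that pair was at 82.0% of 111 against 76.1%, which overlapped. Gzmb UMIs were also held by 44.0% and 33.3% of the B cell marker cells of the toxin-only and combination libraries, so the Gzmb shares stand beside a high background, whose part in them was not tested. No such count of pairs was made over all genes, so whether other genes would lie apart as often is not known. The 39 pairs include those of naive cells, which are described further on.

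The members themselves seldom met in a cell at this depth. Of 39 ordered pairs of members in Foxp3-negative cells 2 were above, 2 below and 35 overlapped. Here too no count over all genes was made to set beside them. Eomes and Prdm1 were the pair below, with both treatments: 0 of 398 Eomes-positive cells held Prdm1, against 2.10% of the negative ones, and 0 of 41 Prdm1-positive cells held Eomes, against 17.2%. The pairs above were Eomes with Bhlhe40 (15.0% against 0.207%) and Tbx21 with Bhlhe40 (15.0%) in naive cells, with 20 positive cells each.

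The naive Eomes-positive and Tbx21-positive cells were few and were richer in NK cell markers than the rest. In the 20 Eomes-positive naive cells NK cell markers stood at 6150 CPM against 52.1 in the rest, with 1 of 10 at 0. Myeloid markers stood at 5500 against 275 CPM there, with 5 of 10 at 0 (Lyz2, Csf1r, Adgre1, Xcr1 and C1qa). In the 20 Tbx21-positive naive cells NK cell markers stood at 3000 against 60.3 CPM, with 0 of 10 at 0. Gzmb was seen in 20% and 15.0% of them. The part of NK cells in the naive values of Eomes and Tbx21 was not tested; without cells that held 2 or more markers of another type the log2 ratio of Eomes between untreated and naive cells was 3.38 in place of 2.25.

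**Figure D5:**
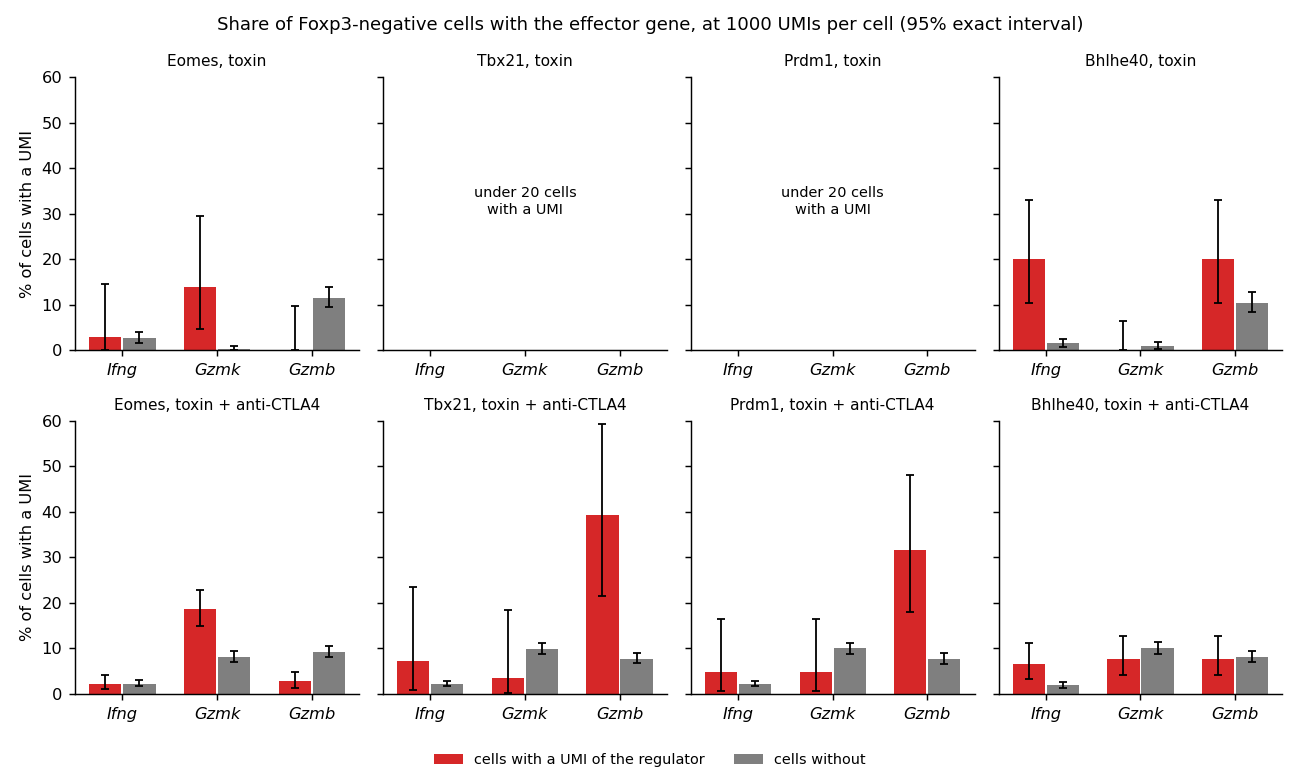
Share of Foxp3-negative cells with a UMI of Gzmk, Gzmb or Ifng in percent (y axis) (Ifng, Gzmk and Gzmb along each x axis) among cells with and without a UMI of each member, in both toxin libraries, where at least 20 positive cells remained after thinning to 1000 UMIs; bars are exact 95% binomial intervals. Eomes-positive cells stand above Eomes-negative ones for Gzmk and Bhlhe40-positive cells above the negative ones for Ifng in both libraries.

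Genes with the most similar pattern were sought over 7 sets of cells: Foxp3-negative cells of each library and Foxp3-positive cells of the toxin libraries, among 7529 genes that reached 25 CPM in at least 1 set. Likeness was Pearson's r of log2(CPM + 1), a description over 7 points, some of which come from the same library. For Eomes the closest were Map1lc3b (r 0.974), Slamf7 (0.969), Arl4d (0.965), Wdfy1 (0.951) and Adk (0.9505). For Tbx21 they were Sap30 (0.993), Tmbim4 (0.990), Hk2 (0.987), Nploc4 (0.986) and Eif3c (0.986). For Prdm1 they were Agpat4 (0.994), Pim1 (0.991), D1Ertd622e (0.988), Mafg (0.987) and Klrg1 (0.986), and for Bhlhe40 Acads (0.997), Cxcr5 (0.989), Anapc7 (0.984), Commd4 (0.984) and Atp6v1f (0.982). Slamf7, a surface receptor of lymphocytes, stood at 197 CPM in Foxp3-negative cells with both treatments and 67.2 with toxin alone, and at 15.2 CPM or less in the other 5 sets. Cxcr5, the follicle homing receptor gene, stood at 2.35 CPM in naive cells and at 43.3 to 66.2 CPM in the Foxp3-negative cells of the other libraries. Among the members r was 0.73 between Eomes and Bhlhe40, 0.56 between Tbx21 and Prdm1, −0.02 between Eomes and Prdm1, and −0.31 between Prdm1 and Bhlhe40.

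The genes most enriched in member-positive Foxp3-negative cells with both treatments were named by the lower bound of their fold, so their folds there are a description. For Eomes they were Nr4a2, a receptor-induced nuclear receptor gene (4.54-fold, 3.34 to 6.17), Slamf7 (3.63-fold, 3.02 to 4.36), Plek (3.36-fold), Slc37a2 (5.62-fold), Crtam (4.60-fold) and Smim3 (4.07-fold). In libraries that did not choose it, Slamf7 was 6.96-fold higher in Eomes-positive cells with toxin alone (3.20 to 13.9) and 18.7-fold with antibody (5.81 to 46.7). The other 5 had 3 UMIs or fewer in Eomes-positive cells of those libraries.

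For Tbx21 the genes were Ifitm2 (11.0-fold), Lgals3 (10.6-fold), Il18r1 (12.9-fold), Ccr2 (10.9-fold), S100a6 (5.34-fold) and S100a4 (5.72-fold). With antibody S100a6 was 4.16-fold higher in Tbx21-positive cells (3.31 to 5.16), while S100a4 was at 1.07-fold, Il18r1 at 1.35-fold and Lgals3 at 0.74-fold, each with an interval across 1, and Ifitm2 and Ccr2 had 0 UMIs. For Prdm1 they were Ctla4 (6.94-fold), Gzmb (6.82-fold), Tnfrsf4 (6.35-fold), Neb (10.8-fold), Il2ra (7.42-fold) and S100a4 (5.60-fold), of which Ctla4 and Il2ra are on the Treg marker list. For Bhlhe40 they were Anxa1 (25.7-fold, 8.92 to 83.4), Ifitm1 (11.8-fold), Il18rap (16.9-fold), Fscn1 (23.6-fold), the chemokine receptor gene Cxcr6 (12.8-fold) and Ifitm2 (6.09-fold). With toxin alone Ifitm2 was 3.72-fold (2.998 to 4.59), Cxcr6 2.76-fold (1.44 to 4.92) and Ifitm1 2.36-fold higher (1.77 to 3.09) in Bhlhe40-positive cells, while Il18rap, at 3 UMIs, had an interval across 1 and Anxa1 and Fscn1 had 1 and 0 UMIs. With antibody Ifitm2 was 2.28-fold higher (1.24 to 3.91), and the other 5 had 3 UMIs or fewer in Bhlhe40-positive cells and intervals across 1, with Cxcr6 at 0.82-fold, Anxa1 at 0.64-fold and Fscn1 at 0.33-fold.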

How the data were processed

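The authors deposited whole-number UMI counts, with genes as rows and cells as columns, in a table for each of 5 libraries. The submitters' processing notes name Seurat 4.0.4, R 4.1.1, Cell Ranger 6.0.0, bcl2fastq 2.20 and the genome build mm10. Per the labels' protocols, cells were sorted and run on the 10x 3′ kit, version 2. Of the gene names 11809 of 11924 were found in GENCODE M21 (GRCm38). The members and lists were chosen with earlier results of these data known.

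Cells needed 200 genes and at most 10% mitochondrial UMIs, which removed 0 cells. A Foxp3-positive or receptor-positive cell had a UMI of Foxp3, or of Trbv13-1 or Trav14d-3-dv8, before thinning. UMIs were summed over cells and scaled to CPM of the listed genes, with Poisson intervals. Ratios carry exact conditional binomial intervals and shares of cells exact binomial (Clopper-Pearson) ones. Shares used cells thinned to 1000 UMIs, which left out 130 naive, 22 untreated, 0 antibody, 35 toxin-only and 384 combination cells. In ratios, genes without a UMI were given 3 UMIs, and folds made in this way are not lower bounds. Doublets were not called.

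Named genes were the members, the partners, Foxp3 and the receptor genes, up to 4 members of each list with the largest log2 ratios, the 5 genes most like each member and the 6 most enriched in its positive cells (at least 10 UMIs there). The last 2 left out mitochondrial, ribosomal, receptor, immunoglobulin, hemoglobin and sex-linked genes.

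Alternatives were TMM factors, the mean CPM of single cells, cells with 2 markers of another type left out, the 5% of cells with the most UMIs left out, cycling cells left out, 2-fold as the limit, a mean of 25 CPM for the background, Foxp3-negative cells without Il2ra, thinning to 500 or 2000 UMIs or none, and a pseudocount of 5. After the data had been seen, cells with at least 5 B cell or 3 other markers left out was added. The ratio, its interval and the 1.5-fold limit were tested on simulated sums. Thinning was checked only for leaving each cell at the set total, and shares of cells were not tested on simulated data. Software was edgeR 4.0.16 in R 4.3.3 for TMM, and scipy 1.17.1, pandas 2.3.3, numpy 2.4.6 and matplotlib 3.10.9 in Python 3.11.15, with the seed 1.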

Additional observations from a re-analysis of the deposited data

Results flagged for a closer look

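The log2 ratio of Eomes between a library with anti-CTLA4 antibody and the matching one without it had opposite signs without and with toxin. Between antibody and untreated cells it was −1.14 over all cells, −1.17 in Foxp3-negative cells and −1.46 in receptor-positive Foxp3-negative cells. Between both treatments and toxin alone it was 1.95, 1.83 and 1.68 in the same order. It drew attention because the single library of each group moved one way without toxin and the other way with it. The difference was not tested, since each group is 1 library. In the untreated Foxp3-negative cells 62 Eomes UMIs came from 28 cells.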

How the results depend on the processing

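No paired analysis was possible because each group is 1 library, and for the same reason no library could be left out. Of 456 log2 ratios of members under alternatives 346 kept their sign within their counting interval, 79 kept it beyond that interval and 31 turned sign. Of those 31, 29 were under 1.5-fold before, and 2 were past it: Prdm1 between antibody and untreated Foxp3-negative cells (−0.0040 with the mean CPM per cell), and Bhlhe40 between toxin-only and untreated over all cells (0.41 without cells with 2 markers of another type). Of 262 counts of members past the limit 219 were equal, 17 changed by up to 1.5 times (such as 3 to 4 or 2 to 3) and 26 by more. Against untreated, antibody had 1 higher member over all and Foxp3-negative cells and 0 with the mean CPM per cell, without 2-marker cells, without cycling cells or at 2-fold, and in receptor-positive cells 0 without cycling cells. Toxin alone against untreated over all cells had 1 lower, and 0 with TMM factors, the mean CPM per cell, without 2-marker, deepest or cycling cells, or at 2-fold. Both against antibody in receptor-positive cells went from 2 to 1 higher without cycling cells and from 0 to 1 lower without cycling or Il2ra cells. Both against toxin alone went from 0 to 1 lower over all cells without 2-marker or cycling cells or with the mean CPM per cell, and in Foxp3-negative cells from 1 to 2 higher without cycling cells and from 1 to 0 lower at 2-fold. Foxp3-positive against negative cells with toxin alone went from 1 to 2 higher with TMM factors and without cycling or Il2ra cells. The cause was not tested. The alternative added after the data had been seen left 33 of 34 counts equal, took 1 from 3 to 4 (Bhlhe40 higher, toxin alone against untreated Foxp3-negative cells, 0.62) and turned 1 sign, under the limit.

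Co-occurrence changed with the depth of thinning, and the cause was not tested; 24, 39, 36 and 57 pairs could be compared in Foxp3-negative cells at 500, 1000 and 2000 UMIs and unthinned. Pairs above in Foxp3-negative cells were 12 at 1000 UMIs, 2 at 500, 7 at 2000 and 23 unthinned, and those below 1, or 2 unthinned. In receptor-positive cells pairs above went from 4 to 1 at 500 and 14 unthinned, and in Foxp3-positive cells from 1 to 0 at 500, 0 at 2000 and 4 unthinned, with 2 below at 2000 and 2 unthinned. Pairs of members above went from 2 to 1 at 500 and 16 unthinned, and below from 2 to 0 at 500; in receptor-positive cells there were 8 above unthinned and 2 below at 2000; in Foxp3-positive cells 2 above unthinned and 1 below at 2000 or unthinned. Of 128 ratios of shares 124 moved within their interval. All 34 background shares of genes past the limit moved with a mean of 25 CPM, and 52 of 60 shares of cells with other thinning. Of the 5 genes most like each member 4 (Eomes), 2 (Tbx21), 2 (Prdm1) and 3 (Bhlhe40) were shared with a pseudocount of 5. Few UMIs limit ratios of Tbx21 (37 in naive and 45 in untreated cells) and of Prdm1 (6 in untreated cells).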
